A study of Mus musculus with 18 samples.

Results

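The immunoglobulin variable segments described here are the heavy chain (Ighv) and kappa light chain (Igkv) gene segments selected on reaching at least 100 counts summed over the 18 labelled libraries. That rule kept 172 of 345 Ighv and Igkv rows, among 48440 gene identifiers in all: 83 of 185 Ighv rows, on chromosome 12, and 89 of 160 Igkv rows, on chromosome 6. The kept segments held 98.4% of all Ighv counts and 99.5% of all Igkv counts, and 30 of the 345 rows had no count in any library. In the GENCODE vM21 annotation of GRCm38, 170 members are typed as variable genes and 2 (Igkv4-77 and Igkv4-73) as variable pseudogenes. Since the summed count chose the members, their abundance is a description, and calls of members between the cell sorts largely repeat that choice. Just inside the threshold lay Ighv1-31 with 113 counts, Ighv5-2 with 132, Igkv4-54 with 108 and Igkv4-73 with 131. Just outside it lay Ighv8-6 with 92, Ighv1-2 with 85, Igkv4-81 with 97 and Igkv4-78 with 77.

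Each B cell builds its antigen receptor by joining 1 variable segment of the heavy locus to diversity and joining segments, and 1 variable segment of a light locus, kappa or lambda, to a joining segment. A clone that expands, and a plasma cell that secretes antibody and carries far more immunoglobulin RNA than a resting B cell, raises the share of its own segments. Class switching later exchanges the mu and delta constant regions for gamma, alpha or epsilon without changing the variable segment. In bulk RNA the share of a segment therefore depends on how many cells use it and on how much RNA each of them holds, and these cannot be told apart here.

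The study sorted CD45+ immune cells from livers of wild-type mice (strain C57BL/6J, 7 weeks old at purchase) in which primary tumours had been induced by injecting Ras/Myc oncogenes into the tail vein under hydrodynamic pressure. Every group carried these tumours. Untreated mice were compared with mice given PolyIC, a synthetic double-stranded RNA, at 4 mg/kg together with anti PD-L1, a checkpoint-blocking antibody, at 200 ug, for 6 doses on alternate days. The dosing notes also list an antibody to VEGF-A, which no label of a treated library names. Sorts sequenced from each arm, with 3 libraries each, were CD3+CD8+ and CD3+CD8- cells, which are T cell gates, and CD3-CD8- cells, the gate in which B cells fall. Libraries carry numbers (1, 5, 6 and 18 untreated, 2, 11 and 19 treated), and the labels do not say whether a number marks an animal, so p-values measure the spread between libraries. Titles put the letter C before untreated 1, 5 and 18 but CV before 6. They put P before treated 2 and 11 but PL before 19. The titles do not explain these letters, and their part in the results was not tested.

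Library totals ran from 1829155 to 28233682 counts. Levels are given as CPM, counts scaled to library size with TMM, edgeR's between-library factors. Sums over a family or marker list, constant genes by sort and Cd8a, Ms4a1 and Jchain use factors over all 18 libraries, and single genes in a treatment or sort comparison use factors over the libraries of that comparison. In 3 libraries 79.3 to 86.3% of counts fell on ribosomal loci (untreated CD3+CD8+ 1 and 18, treated CD3+CD8- 2), against at most 2.25% in the others. Some libraries stood apart from their labels. Untreated CD3+CD8- 6 held 628 CPM of the T cell coreceptor Cd8a, against 4.33 to 19.7 in the other CD3+CD8- libraries. The CD3-CD8- libraries held Cd8a too, at 59.9 to 294 CPM untreated and 553 to 1049 CPM treated, and their 9 T cell markers summed to 724 to 1962 CPM untreated and 4077 to 6464 CPM treated. Untreated CD3+CD8+ 18 held 334 CPM of Ms4a1 (CD20, a B cell surface protein), against 3.01 to 33.5 CPM in the other CD3+CD8+ libraries. The part of these differences in the results below was not tested, except where a value without a library is given.

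Many variable segments have a close relative in their family, so the sequences of the leading segments are shown with their closest relatives. Each line gives the last 90 coding bases, 5′ to 3′ on the coding strand, from the GENCODE vM21 transcripts (GRCm38), with capitals where the pair differs. Where a pseudogene such as Ighv4-2 has no annotated coding span, the whole transcript was used in its place. Coding length over members ran from 347 to 394 bases for Ighv and from 338 to 370 for Igkv, and each member's identity to its nearest family row had a median of 95.4% for Ighv and 94.9% for Igkv. The lowest identities were 72.0% and 73.1%. The first pair is shown because Ighv1-26 led the heavy chain in most CD3-CD8- libraries. Its window lies at chr12:114788372-114788461 and that of Ighv1-18 at chr12:114682632-114682721, both on the minus strand.
Ighv1-26: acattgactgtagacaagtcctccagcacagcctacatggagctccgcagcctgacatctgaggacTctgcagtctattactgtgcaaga
Ighv1-18: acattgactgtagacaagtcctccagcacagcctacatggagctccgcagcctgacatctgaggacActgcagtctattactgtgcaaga
Those windows differed at 1 base, and the longest run shared by the full coding sequences was 94 bases. The second pair is shown because Ighv4-1 (chr12:113948282-113948371, minus strand) led treated CD3-CD8- library 19, and its nearest relative is the pseudogene Ighv4-2 (chr12:114013144-114013233, minus strand).
Ighv4-1: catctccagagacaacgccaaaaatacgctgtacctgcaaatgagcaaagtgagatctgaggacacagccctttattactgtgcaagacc
Ighv4-2: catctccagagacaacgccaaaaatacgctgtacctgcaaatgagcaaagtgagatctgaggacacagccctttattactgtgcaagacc
No base differed here, yet Ighv4-1 was counted 3411 times and Ighv4-2 27 times, which kept the latter out of the members. The third pair is shown because Ighv3-6 (chr12:114288152-114288241, minus strand) ranked next to Ighv4-1 in the same library, and Ighv3-1 is at chr12:113964388-113964477, minus strand.
Ighv3-6: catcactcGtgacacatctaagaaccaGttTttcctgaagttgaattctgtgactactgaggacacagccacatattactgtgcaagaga
Ighv3-1: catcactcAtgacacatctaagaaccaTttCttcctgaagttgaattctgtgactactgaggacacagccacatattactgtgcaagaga
These windows differed at 3 bases. The fourth pair is shown because Ighv5-9 (chr12:113661769-113661858, minus strand) led treated CD3-CD8- library 11, and Ighv5-6 is at chr12:113625506-113625595, minus strand.
Ighv5-9: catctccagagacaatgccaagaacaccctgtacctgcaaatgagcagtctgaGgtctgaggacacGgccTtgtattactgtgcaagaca
Ighv5-6: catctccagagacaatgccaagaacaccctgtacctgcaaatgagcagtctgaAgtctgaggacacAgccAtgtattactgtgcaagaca
They too differed at 3 bases. The fifth pair holds the 2 kappa segments with the highest mean share, Igkv1-110 (chr6:68271178-68271267, plus strand) and Igkv1-117 (chr6:68121738-68121827, plus strand).
Igkv1-110: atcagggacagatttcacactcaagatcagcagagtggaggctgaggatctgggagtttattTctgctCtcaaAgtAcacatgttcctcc
Igkv1-117: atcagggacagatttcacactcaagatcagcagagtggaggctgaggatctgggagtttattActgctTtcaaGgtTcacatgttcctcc
Those differed at 4 bases, and the pair shared a run of 142 bases. Of all 50-base windows of Igkv1-110, 55.8% occurred in no other Ighv or Igkv row, against 96.7% for Ighv3-6, 83.2% for Ighv5-9, 67.8% for Ighv4-1 and 51.0% for Ighv1-26. How the deposited counts treated reads that match 2 segments is not given in the sources used here, so counts of near-identical segments are uncertain relative to each other.

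In CD3-CD8- libraries the usage was broad. These libraries held 2529 to 30393 Ighv counts and 6802 to 64908 Igkv counts, and 83.2% of all member counts in the series. Between 81 and 83 of the 83 Ighv members, and 88 or 89 of the 89 Igkv members, had at least 1 count in each. The selection rule largely fixed that detection, since most of the counts that chose the members came from these libraries. As a mean over the 6 libraries, the 5 leading Ighv segments took 22.3% of Ighv counts and the 5 leading Igkv segments 25.6% of Igkv counts. Below 1% each lay 50 Ighv and 52 Igkv members.

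Ighv1-26, a member of the large Ighv1 subgroup, had the highest mean share of Ighv counts, 6.92% ± 1.23 (SD, n = 6). It took 6.64%, 8.30% and 7.51% in untreated libraries 1, 5 and 18, and 8.02%, 5.22% and 5.86% in treated libraries 2, 11 and 19. It was the leading segment in all 3 untreated libraries and in treated library 2. Ighv3-6 followed at 5.28% ± 2.71, with 3.81%, 3.62% and 4.07% untreated and 4.55%, 4.90% and 10.7% treated. Ighv9-3 stood at 3.96% ± 1.32 and Ighv1-9 at 2.96% ± 0.98 (SD, n = 6 each). The mean of Ighv4-1, 3.15% ± 5.07, was carried by 1 library: it took 0.85%, 0.58% and 0.68% untreated, 1.23% and 2.14% in treated 2 and 11, and 13.4% in treated 19.

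Among kappa segments, Igkv1-110 had a mean share of 7.23% ± 3.97 of Igkv counts and Igkv1-117 of 6.78% ± 1.502 (SD, n = 6). Igkv1-110 took 3.62%, 3.45% and 8.68% in untreated libraries 1, 5 and 18 and 6.48%, 14.2% and 6.94% in treated libraries 2, 11 and 19. The treated libraries thus lay within the untreated range except for 11. Igkv10-96 was the steadiest of the 5 leading kappa segments, at 4.46% ± 0.28, and lay between 4.12% and 4.98% in all 6 libraries. Igkv1-135 stood at 3.79% ± 0.95 and Igkv6-15 at 3.31% ± 0.86.

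The share of the top segment and the diversity of use were compared between treated and untreated CD3-CD8- libraries. The leading Ighv segment took 6.64%, 8.30% and 7.51% untreated, always Ighv1-26, and 8.02% (Ighv1-26), 9.81% (Ighv5-9) and 13.4% (Ighv4-1) treated. Their 95% Wilson intervals, which cover counting error only, ran from 5.94 to 7.42%, 8.00 to 8.62% and 6.98 to 8.08% untreated, and from 7.27 to 8.83%, 8.71 to 11.03% and 12.9 to 14.0% treated. Group means were 7.48% ± 0.83 and 10.4% ± 2.77 (SD, n = 3 each), a difference of 2.94 percentage points that did not pass an exact permutation test (two-sided p = 0.20). With 3 libraries against 3 no p below 0.10 can be reached, and the 23 tests of usage all had adjusted p of 0.77 or more. The leading Igkv segment was Igkv10-96 at 4.98%, Igkv1-117 at 6.397% and Igkv1-110 at 8.68% untreated. Treated, it was Igkv1-110 at 6.48% and 14.2% and Igkv1-117 at 8.97%, and the exact permutation p was again 0.20 (n = 3 each).

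Diversity was expressed as the effective number of segments, the count of equally used segments that would give the same chance of drawing the same segment again (inverse Simpson index). For Ighv it was 44.8, 38.0 and 36.5 in untreated libraries 1, 5 and 18, and 39.5, 29.2 and 22.5 in treated libraries 2, 11 and 19. Treated libraries 11 and 19 lay below all untreated ones, and treated library 2 lay among them. The means were 39.8 ± 4.42 untreated and 30.4 ± 8.56 treated (SD, n = 3 each; exact permutation p = 0.30). For Igkv the values were 44.1, 43.6 and 33.1 untreated and 40.1, 24.5 and 31.3 treated, with means of 40.2 ± 6.22 and 32.0 ± 7.80 (exact permutation p = 0.20). Within sequencing lane 2 (2 libraries a group) the differences were -6.29 for Ighv and -6.25 for Igkv, and within lane 3 (1 a group) -15.5 and -12.3. In both families the treated mean was lower (treated minus untreated -9.37 for Ighv and -8.26 for Igkv), and the groups overlapped.

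**Figure D1:**
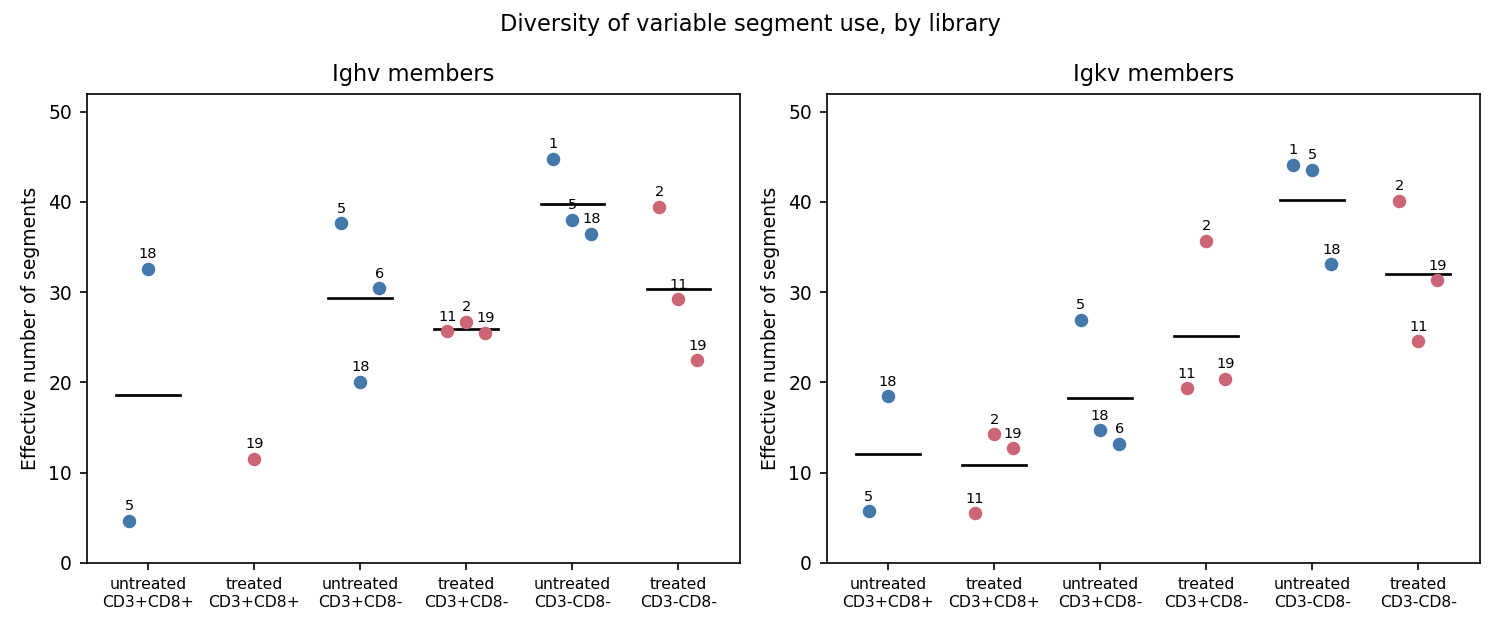
Effective number of Ighv (left) and Igkv (right) segments in each library (points, labelled by library number; untreated in blue, treated in red) by group, with group means as black lines; libraries under 100 family counts have no point. The CD3-CD8- libraries lie between 22.5 and 44.8 for Ighv, and treated libraries 11 and 19 lie below the 3 untreated ones.

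The low diversity in treated libraries 11 and 19 went with different segments. In treated CD3-CD8- 19, Ighv4-1 and Ighv3-6 together led, at 13.4% and 10.7% of Ighv counts. In treated CD3-CD8- 11, Ighv5-9 took 9.81%, against 0.21% to 0.66% in the other 5 CD3-CD8- libraries. Ighv1-36, singled out after its values were seen, took 5.30% there and 0.15% to 0.37% in the other 5. On the kappa side library 11 was high for Igkv1-110 and library 19 for Igkv12-44, at 7.29% against 2.01% to 3.18% (also singled out after its values were seen).

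Some of those segments, Ighv5-9, Ighv4-1 and Ighv3-6, were also high in the CD3+CD8- library of the same number. Ighv5-9 took 9.57% of Ighv counts in treated CD3+CD8- 11, and 0 to 2.27% in the other CD3+CD8- libraries. The title of that library repeats a digit in its number and was read as 11, so its match with the other library 11 rests on that reading. Ighv4-1 took 7.89% and Ighv3-6 9.24% in treated CD3+CD8- 19, against at most 2.25% and 6.57% in the other CD3+CD8- libraries. Untreated library 18 showed the same for Ighv1-81, with 6.53% in CD3-CD8- and 10.8% in CD3+CD8-. Not every high segment was shared: Ighv1-36 took 0.28% in treated CD3+CD8- 11. Ighv1-77 (singled out after its values were seen) took 8.32% in treated CD3+CD8- 19 and 1.95% in CD3-CD8- 19, and at most 1.14% in any other library of these 2 fractions.

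**Figure D2:**
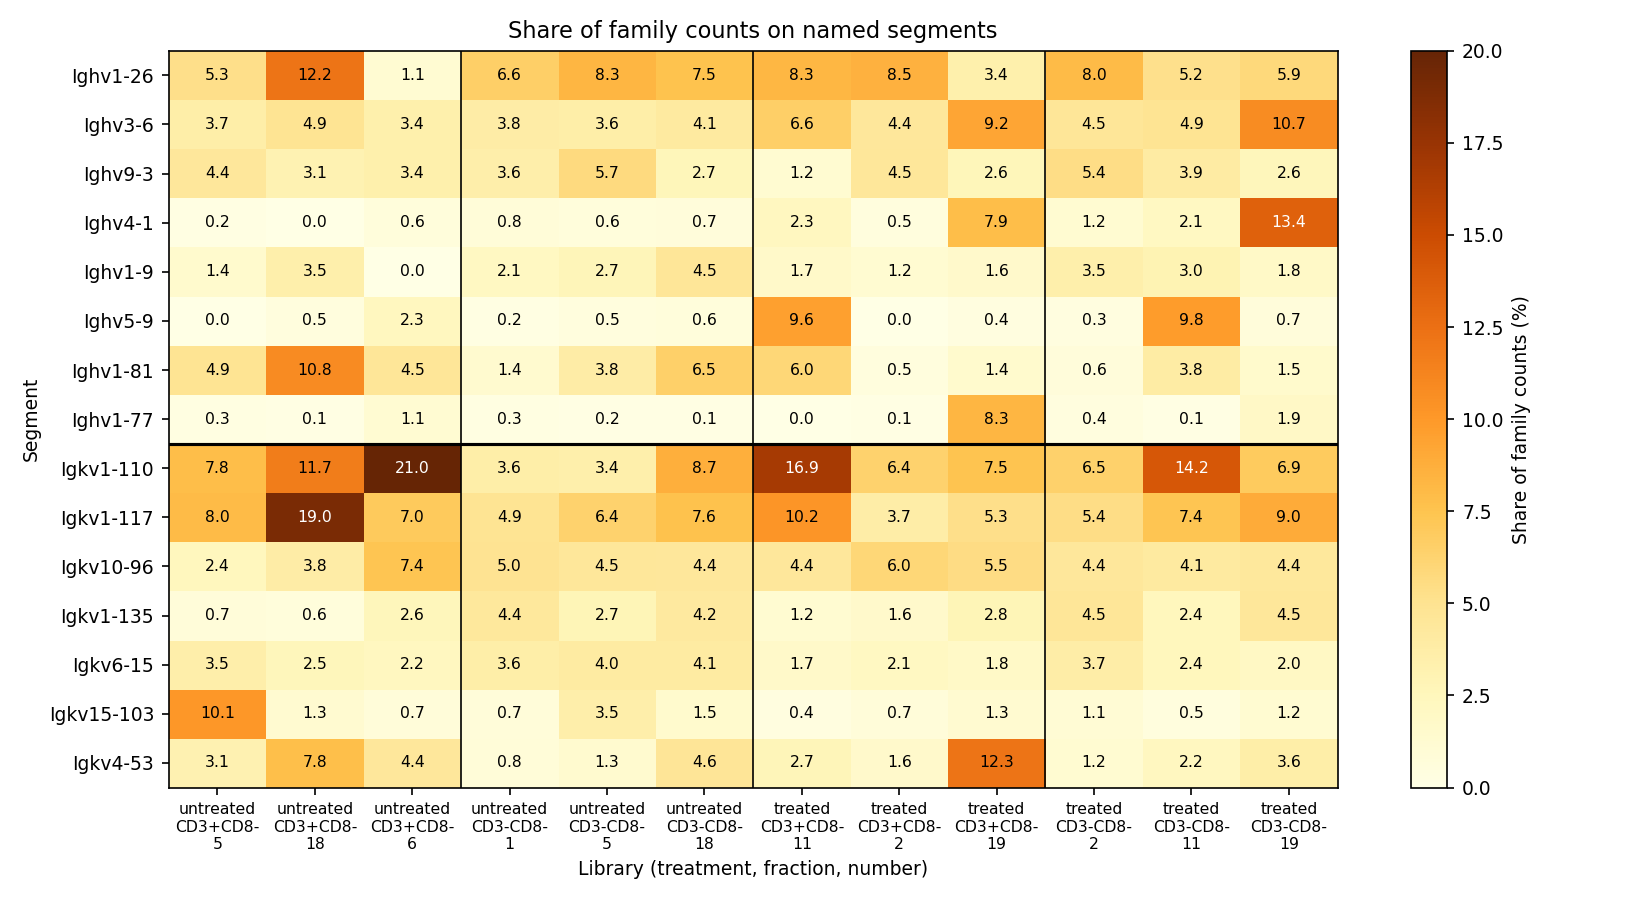
Share of Ighv counts (rows above the line) or Igkv counts (rows below) on named segments, in percent, for each CD3+CD8- and CD3-CD8- library (columns). Ighv5-9 is high in both fractions of treated 11 (9.57 and 9.81%) and Ighv4-1 in both fractions of treated 19 (7.89 and 13.4%).

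Resemblance over all members was measured with the Morisita index, which is 1 for the same usage and allows for sampling, in libraries with at least 500 member counts. That left 5 CD3+CD8- libraries (all but untreated 6) to set against 6 CD3-CD8- libraries, and for Igkv 2 CD3+CD8+ libraries as well. For Ighv the 5 pairs with the same number had indices of 0.809 to 0.906, and the 25 pairs with different numbers 0.522 to 0.806. Each of the 5 CD3+CD8- libraries was most like the CD3-CD8- library of its own number, by a wide margin in treated 19 (0.830 against at most 0.612) and by a narrow one in treated 2 (0.809 against 0.806). With the 3 highest segments of either library left out of each pair, same-number indices were 0.776 to 0.902 and the others 0.632 to 0.791, so the ranges then overlapped. For Igkv 4 of 5 libraries were most like their own number. The exception was treated 2, at 0.857 with its own number and 0.864 with untreated 1, and treated 19 was nearly tied, at 0.745 against 0.744. The CD3+CD8+ libraries were not most like their own number for Igkv. Untreated CD3+CD8+ 18 had 0.869 with CD3-CD8- 18 and 0.956 with treated CD3-CD8- 11, and treated CD3+CD8+ 19 had 0.418 with CD3-CD8- 19 and 0.547 with treated CD3-CD8- 11. In the pairs 5 and 2 of the CD3+CD8- and CD3-CD8- sorts the libraries ran on different sequencing lanes, and their Ighv indices were 0.882 and 0.809. These indices share libraries and segments and are given as a description.

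**Figure D3:**
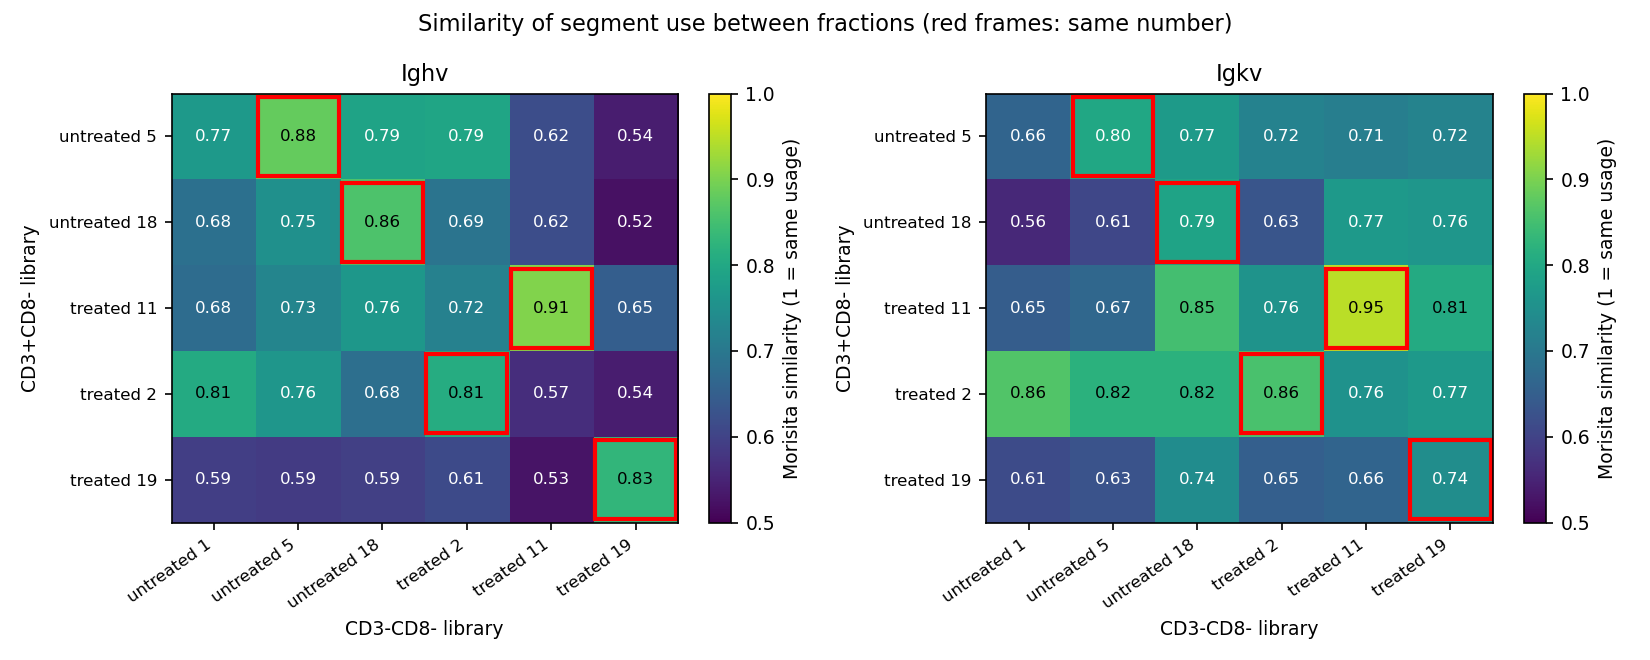
Morisita similarity of Ighv (left) and Igkv (right) usage between each CD3+CD8- library (rows) and each CD3-CD8- library (columns); red frames mark the same number. For Ighv the framed pairs lie between 0.81 and 0.91 and the others between 0.52 and 0.81.

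Segment by segment, treated and untreated CD3-CD8- libraries were compared with edgeR's quasi-likelihood test over all genes (Benjamini-Hochberg adjusted p under 0.05 as the call). Of 172 members 167 passed the filter on low counts, and 13 of them were called, 12 lower and 1 higher with treatment. Of all 13781 genes tested 25.6% were called, 15.3% lower and 10.2% higher, shares against which the members' 13 calls, and their split, are to be read. The 81 tested Ighv members had a median log2 fold change of -0.83, with 11 above 0, and the 86 tested Igkv members of -0.40, with 16 above 0. The median over all genes was -0.06. The higher call and 11 of the lower ones were Ighv segments, and the remaining one was Igkv14-126.

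Ighv2-3 was 2.62, 3.99 and 4.97 CPM in untreated libraries 1, 5 and 18 and 0.60, 0.94 and 1.06 CPM in treated libraries 2, 11 and 19. It fell by 2.31 on the log2 scale (SE 0.42, edgeR adjusted p = 0.012), and the groups did not overlap. Ighv14-4 stood at 7.70, 12.99 and 9.41 CPM untreated and 3.22, 1.17 and 4.19 CPM treated, a log2 fold change of -1.87 (SE 0.38, edgeR adjusted p = 0.015). Neither segment was among the leading ones: Ighv2-3 held 291 and Ighv14-4 held 874 counts in the whole series. Ighv1-69 went from 5.25, 13.8 and 11.1 CPM to 2.03, 1.87 and 3.84 CPM (log2 fold change -2.06, SE 0.43, edgeR adjusted p = 0.016). The remaining lower calls, Ighv1-50, Ighv2-6, Ighv8-8, Ighv1-52, Igkv14-126, Ighv1-80, Ighv1-66, Ighv2-2 and Ighv1-85, had log2 fold changes between -2.08 and -1.13.

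Ighv7-4 was the segment called higher, with 0.08, 0.41 and 0.21 CPM untreated and 4.71, 1.17 and 1.06 CPM treated (log2 fold change 2.99, SE 0.76, edgeR adjusted p = 0.029). It rests on few counts: 1, 13 and 2 untreated, and 79, 5 and 24 treated. None of the segments that led a CD3-CD8- library was called. Ighv4-1 had a log2 fold change of 2.81 (SE 1.06, edgeR adjusted p = 0.088) and Ighv5-9 of 2.46 (SE 1.38, edgeR adjusted p = 0.22), their levels being high in 1 treated library each. Ighv1-26, with -0.96 (SE 0.43), Igkv1-110, with 0.46 (SE 0.69), and Igkv1-117, with -0.08 (SE 0.56), did not pass either.

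The 13 calls depended on the libraries and the fit. Without untreated library 5, the deepest of its group, none was called. There were 2 without treated library 2, 5 without untreated 18 or treated 19, and 20 without untreated 1. All 18 libraries in 1 fit gave 0 calls, with 8 members at an unadjusted p under 0.05, DESeq2 gave 28 and a correction for GC content 2. With treatment the RNA of other cells shifted in the same libraries. B cell markers fell for 13 of 15 genes by edgeR, with a median log2 fold change of -1.01, and their summed level was 3314 to 4362 CPM untreated and 1811 to 2601 CPM treated. T cell markers rose for 8 of 9 genes. The 5 NK cell markers summed to 1216 to 1657 CPM untreated and 3100 to 4331 CPM treated, and the 5 neutrophil markers to 118 to 719 and 568 to 19398 CPM. Of the B cell markers Cd79a, a signalling chain of the B cell receptor, had a log2 fold change of -1.52 and Ms4a1, which was not called, of -0.18. The part of these shifts in the segment values was not tested.

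Summed over each family, the level moved little against the spread. Ighv counts came to 315, 750 and 698 CPM in untreated libraries 1, 5 and 18 and 197, 506 and 564 CPM in treated libraries 2, 11 and 19. Igkv counts came to 870, 1601 and 1573 CPM untreated and 590, 1362 and 1557 CPM treated. Mean log2 levels differed by -0.52 for Ighv and -0.27 for Igkv (exact permutation p = 0.50 for each, n = 3 per group). Members also varied more between libraries of a group than other genes of like level. Their median within-group SD of log2 CPM was 0.70 in CD3-CD8- libraries against 0.30 for other genes, and 1.41 against 0.64 in CD3+CD8- libraries.

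Position along the locus was examined because segments near the joining segments are known to rearrange under other controls than distant ones. The heavy joining segments lie below all Ighv members on chromosome 12, and the kappa joining segments above all Igkv members on chromosome 6 (GRCm38). The 41 Ighv members nearest to them held 38.4 to 44.1% of Ighv member counts in untreated and 47.3 to 55.8% in treated CD3-CD8- libraries. The share, a measure added after the data were seen, did not overlap between groups, with means of 40.6% ± 3.04 and 51.6% ± 4.25 (SD, n = 3 each) and an exact permutation p of 0.10, the smallest this design allows. Without the 3 highest segments of each library the difference shrank from 10.99 to 2.44 percentage points (exact permutation p = 0.60, n = 3 each). It was 8.23 points in lane 2 and 16.5 in lane 3. For Igkv the 44 nearest members held 47.2% ± 2.74 untreated and 43.5% ± 1.69 treated (exact permutation p = 0.20). Ighv4-1, Ighv3-6 and Ighv5-9 all lie in the nearer set.

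The nearer Ighv members had a median log2 fold change of -0.55 and the farther ones of -1.02. By edgeR 4 of 41 tested nearer members and 7 of 40 farther ones were called lower, against 15.3% of all genes. Called higher was 1 nearer member, against 10.2% of all genes, and no test compared the nearer with the farther members. Nearer and farther Igkv members had medians of -0.44 and -0.37. By subgroup, Ighv1 members took 50.6%, 58.7% and 58.5% of Ighv counts in untreated and 50.04%, 45.2% and 41.7% in treated CD3-CD8- libraries. Ighv2 members took 3.56%, 4.64% and 2.77% untreated and 2.35%, 1.86% and 1.82% treated. Both sets of values were lower in each treated library than in each untreated one. Ighv4, whose one member is Ighv4-1, was higher in each. These 3 are all the subgroups without overlap, among 15 of Ighv and 18 of Igkv, and none was tested. Without any effect, 3 libraries against 3 separate fully with a probability of 0.10, and 3 of 33 subgroups lies near that share.

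**Figure D4:**
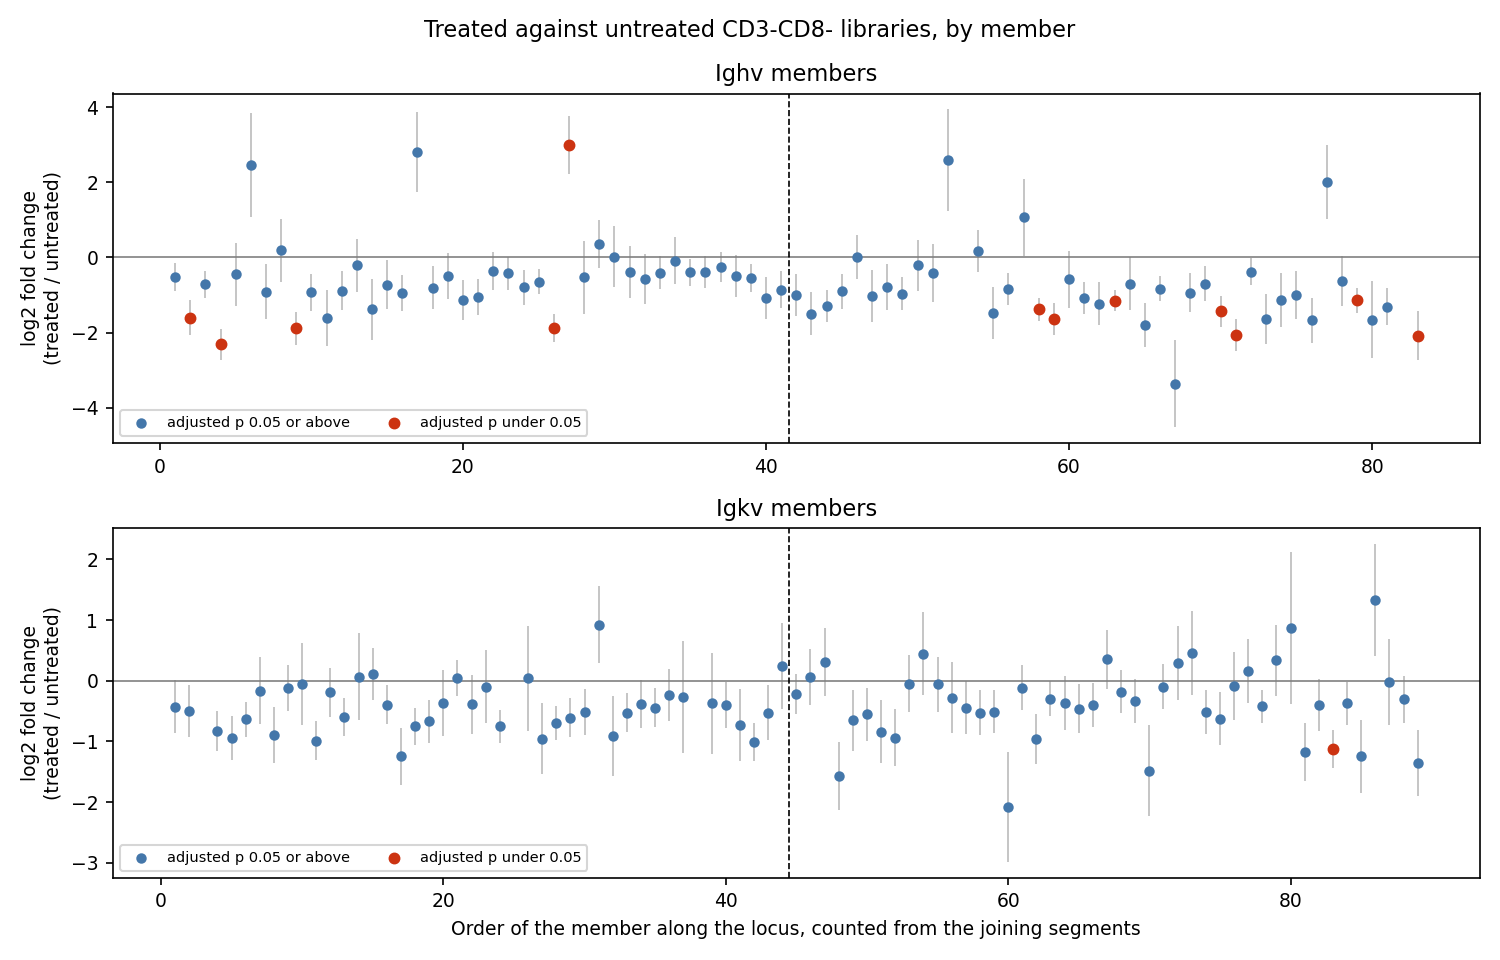
Log2 fold change (treated over untreated, CD3-CD8- libraries, edgeR, 3 against 3) of each tested Ighv (top) and Igkv (bottom) member, ordered from the joining segments; bars are standard errors, red points were called, and the dashed line splits the nearer from the farther members. Most points lie below 0, and the 13 called segments are spread along the loci.

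The CD3+CD8- sort held fewer but still many immunoglobulin counts, 176 to 8798 for Ighv and 272 to 16685 for Igkv. Its leading Ighv segments were Ighv1-18 (5.54%), Ighv1-26 (12.2%) and a tie of Ighv1-55 and Ighv1-80 (6.82% each) in untreated libraries 5, 18 and 6. In treated libraries 11, 2 and 19 they were Ighv5-9 (9.57%), Ighv1-26 (8.52%) and Ighv3-6 (9.24%). Igkv15-103 (10.1%), Igkv1-117 (18.95%) and Igkv1-110 (21.0%) led the kappa chain untreated, and Igkv1-110 (16.9% and 6.39%) and Igkv4-53 (12.3%) treated. Leading segments thus changed from library to library within a group. The sort also held neutrophil markers, summing to 2483 to 13744 CPM untreated and 9994 to 30726 CPM treated, beside T cell markers of 1652 to 3920 and 1975 to 4160 CPM, and their part in the segment values was not tested.

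Effective numbers in CD3+CD8- libraries were 37.6, 20.1 and 30.4 for Ighv untreated (5, 18 and 6) and 25.6, 26.7 and 25.5 treated (11, 2 and 19). Their means, 29.4 ± 8.81 and 25.9 ± 0.66 (SD, n = 3 each), gave an exact permutation p of 0.70. For Igkv they were 26.9, 14.7 and 13.2 untreated and 19.4, 35.7 and 20.4 treated (exact permutation p = 0.50, n = 3 each). The directions of the 2 families were opposite, and in both families the groups overlapped. Top-segment shares gave exact permutation p of 0.80 for Ighv and 0.40 for Igkv. The summed levels gave 0.60 and 0.70, and without untreated 6, the library with high Cd8a, the log2 difference of the Igkv level turned from 0.65 to -0.27.

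No segment was called between treated and untreated CD3+CD8- libraries by edgeR (0 of 82 tested members, and 0 of 11197 genes, or 0%), with 4 members at an unadjusted p under 0.05. DESeq2 called 2 and edgeR without a filter on low counts 16. The 3 smallest p belonged to kappa segments. Igkv3-10 stood at 2.24, 0.27 and 0.41 CPM in untreated libraries 5, 18 and 6 and 12.9, 1.45 and 12.6 CPM in treated libraries 11, 2 and 19 (log2 fold change 2.94, SE 0.87, edgeR adjusted p = 1.0). Igkv1-135 had a log2 fold change of 1.67 (SE 0.57) and Igkv14-111 of 1.31 (SE 0.51). Members varied widely within these groups, with the median SD of 1.41 given above.

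The constant regions read alongside differed between the sorts. Switched isotypes (Ighg, Igha and Ighe) made up 28.5 to 69.3% of heavy constant counts in CD3+CD8- libraries, 6.08 to 35.2% in CD3-CD8- and 5.37 to 12.4% in CD3+CD8+ libraries. The 28.5% was untreated CD3+CD8- 6, the library with high Cd8a, and the others of that sort held 47.8 to 69.3%. In CD3+CD8+ libraries other than untreated 18, Ighm stood at 125 to 363 CPM and all Ighv counts at 8.57 to 31.1 CPM. Untreated 18 held 1166 and 271 CPM, and CD3-CD8- libraries 927 to 2978 and 197 to 750 CPM. The source of the Ighm counts was not tested, so the switched share of the CD3+CD8+ sort may not describe B cells. Ighd, a mark of naive B cells, made up 0.29 to 1.66% in CD3+CD8- and 16.6 to 29.3% in CD3-CD8- libraries. Ms4a1 stood at 2.05 to 8.73 CPM in CD3+CD8- against 457 to 645 CPM in CD3-CD8-, while Jchain, which links secreted IgM and IgA chains, stood at 72.3 to 526 and 91.4 to 1223 CPM. The 72.3 CPM was again untreated CD3+CD8- 6, and the others of that sort held 149.7 to 526 CPM. The B cell list summed to 49.8 to 98.1 CPM and the plasma cell list of 6 markers to 135 to 670 CPM in CD3+CD8- libraries, and no marker of either list was at 0 throughout. The plasma cell sum came mainly from Jchain and Xbp1. With factors over the CD3+CD8- libraries, Xbp1 stood at 60.7 to 139 CPM, but Mzb1 at only 3.30 to 10.3 and Sdc1 at 1.24 to 4.36 CPM. Segment counts in the CD3+CD8- gate thus came with low B cell markers and with Jchain at a level that overlapped the CD3-CD8- gate, which is a description over shared libraries with no test.

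**Figure D5:**
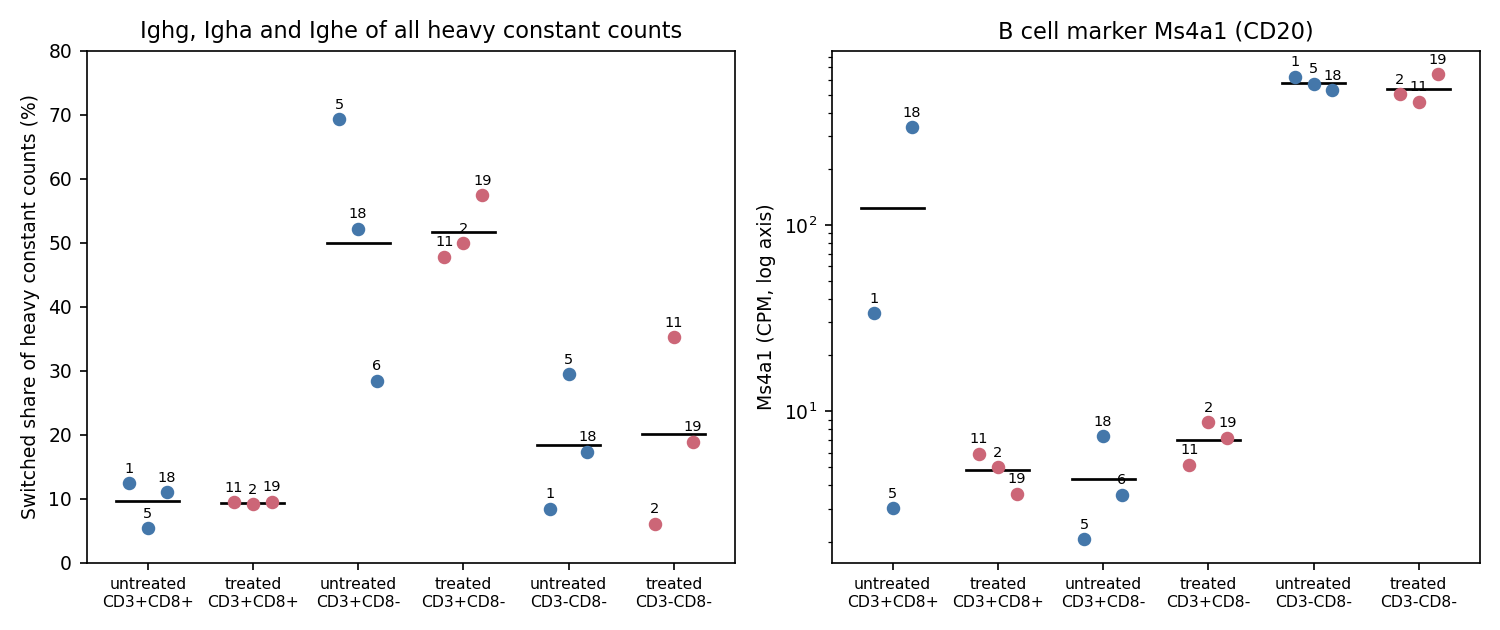
Left, switched share of heavy constant counts in percent by library; right, Ms4a1 in CPM on a log axis; points are libraries labelled by number (untreated blue, treated red), and lines are group means. CD3+CD8- libraries have switched shares of 28.5 to 69.3% with Ms4a1 below 9 CPM, and CD3-CD8- libraries have Ms4a1 of 457 to 645 CPM.

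Under treatment, of the constant genes Ighm alone was called in CD3-CD8- libraries, among 11 of 12 tested: it had 2138, 3825 and 3677 CPM untreated and 1403, 1084 and 1999 CPM treated (log2 fold change -1.24, SE 0.30, edgeR adjusted p = 0.025). Of all genes tested in this comparison 15.3% were called lower and 10.2% higher, shares against which the list counts here are to be read. Of 13 plasma cell genes tested 3 fell and 1 rose. Sdc1 (CD138) had a log2 fold change of -1.86, Pou2af1, a B cell transcriptional coactivator, of -1.05 and Mzb1, an antibody-folding chaperone, of -0.995, while Prdm1, which drives plasma cell fate and is expressed by T cells as well, had 1.65. Of 9 recombination and germinal centre genes tested, Ung, a repair enzyme of class switching, fell by 1.32 and Bcl6 by 0.94 on the log2 scale, and Rag1, the recombinase, was not called. Lambda variable genes (0 of 3) and joining segments (0 of 6 tested) were not called. In CD3+CD8- libraries no gene of these lists was called.

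CD3+CD8+ libraries held the fewest counts, 26 to 402 for Ighv and 72 to 656 for Igkv, so their shares are imprecise. Igkv1-110 led the kappa chain in 5 of 6 libraries, at 11.1%, 35.1% and 19.1% in untreated 1, 5 and 18 and 38.7% and 14.8% in treated 11 and 19. In treated 2 Igkv1-88 led with 12.4% and Igkv1-110 followed with 11.1%. The 95% Wilson interval of the 38.7% was 33.4 to 44.4%, and of the 35.1% it was 29.2 to 41.5%. Both lie above the highest share of this segment in the other 2 sorts, 21.0% in untreated CD3+CD8- 6, the library with high Cd8a. The next highest share in those sorts was 16.9%. Ighv1-81 took 33.3% of 108 Ighv counts in untreated 5 (Wilson interval 25.2 to 42.7%) and Ighv1-7 17.2% of 402 in treated 19. The other leading heavy segments were Ighv1-26 in untreated 1 and 18 and treated 2 (11.5%, 10.6% and 20.8%), and a tie of Ighv9-3 and Ighv1-81 in treated 11 (11.7% each).

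Effective numbers could be given for 3 of 6 CD3+CD8+ libraries for Ighv, at 4.66 and 32.6 in untreated 5 and 18 and 11.5 in treated 19, and for 5 of 6 for Igkv, between 5.51 and 18.5. The highest values of both families came from untreated 18, the library with B cell markers. Igkv means were 12.1 ± 9.04 (SD, n = 2) and 10.8 ± 4.64 (SD, n = 3), with an exact permutation p of 0.90. Only 2 members passed the filter between treated and untreated libraries, Igkv1-110 (log2 fold change -3.08, SE 1.21, edgeR adjusted p = 0.75) and Igkv4-53 (-2.48, SE 1.64, edgeR adjusted p = 1.0). Neither was called, as 0 of 10654 genes were (0%), with 1 of the 2 at an unadjusted p under 0.05, and DESeq2 called 6 of 162 members. Igkv1-110 stood at 6.59, 6.63 and 134 CPM in untreated 1, 5 and 18 and 14.0, 2.12 and 2.76 CPM in treated 11, 2 and 19, so that only untreated 18 was high. Without that library its log2 fold change was -0.11 and that of Igkv4-53 was 2.32.

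Against the CD3+CD8+ sort, segments were higher in CD3-CD8- libraries. Of the counts that chose the members 83.2% came from CD3-CD8- libraries, where 171 of 172 members had most of their counts. The calls below therefore largely repeat that choice, and are a description and no support for a difference between sorts. Of treated libraries 118 of 133 tested members were higher by edgeR, against 4.49% of all genes, and of untreated libraries 11 of 151, against 0.794% of all genes. With the library number as a block, the untreated count was 29 and the treated one 127. Without treated CD3-CD8- 19 the treated count was 78. Without untreated CD3+CD8+ 18 the untreated count was 101. It was 14 without CD3+CD8+ 5 and 0 without CD3+CD8+ 1 or any 1 of the CD3-CD8- libraries.

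Whether treatment acted differently in the sorts was tested as an interaction over all 18 libraries. No member was called by edgeR for CD3-CD8- against CD3+CD8+ (0 of 157 members, and 0% of 13181 genes) or against CD3+CD8- (0 of 157, and 0%), with 10 and 19 members at an unadjusted p under 0.05. DESeq2 was not run on this contrast. The lower Ighv medians in CD3-CD8- and the positive ones in CD3+CD8- (0.53 for Ighv and 0.41 for Igkv members, 35 and 47 tested) are therefore not shown to differ.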

How the data were processed

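RNA of sorted liver immune cells was sequenced with Illumina TruSeq v2 libraries, per the labels' protocols. The authors' deposited table holds raw counts per gene, and their second deposited table holds FPKM. The submitters' processing notes name HTSeq 0.13.5, DESeq2 3.20, Cufflinks 2.2.1 and also Trim Galore 0.6.7. No source used here gives the aligner, the strand setting or the handling of multiply matching reads. Of 40 library columns in the count table, 22 match no sample described here and were not used. Loci of all 172 members in the FPKM table equal the GENCODE vM21 (GRCm38) spans after adding 1 to the start.

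Members and gene lists were chosen with earlier results of these data known. Counts were tested with edgeR 4.0.16 (R 4.3.3; filterByExpr, TMM, quasi-likelihood, adjusted over all genes), with DESeq2 1.42.0 as an alternative, and a check on simulated data. The simulation gave all genes the same spread setting, so it does not cover the wider spread of the members. Usage values were compared by exact two-sided permutation over libraries, the joining-proximal share being added after the data were seen. The heavy and kappa segments named were the 5 of highest mean share in CD3-CD8- libraries per family, the leading segment of every library, up to 3 called segments each way (or the 3 of smallest p), and the threshold's neighbours. Deviations from the group means were correlated between same-numbered libraries of the CD3-CD8- and CD3+CD8+ sorts. The r values were 0.20, 0.34 and 0.58 over 8001 genes untreated, and 0.49, 0.40 and 0.31 over 7897 genes treated. Pairs of different numbers had r of -0.456 to 0.265 untreated, the highest above that of pair 1, and -0.307 to -0.024 treated. Deviations from a mean of 3 libraries sum to 0, which by itself lowers r between different numbers. The main fits left the number out, and it entered as a block only in alternative fits. FPKM served only as an alternative unit for shares. Sequencing lanes 2 and 3 were the only batch that the library names state, and other batches are not known.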

Additional observations from a re-analysis of the deposited data

How the results depend on the processing

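Counts of called segments changed with the fit. Without a filter on low counts, treatment calls were 19 in CD3+CD8+, 16 in CD3+CD8- and 44 in CD3-CD8- libraries, and DESeq2 gave 6, 2 and 28. In CD3-CD8- libraries all 18 libraries in 1 fit gave 0, the GC correction 2, and leaving out 1 library 0 to 20. Untreated sorts differed in 153 segments without the filter, 52 with DESeq2, 29 with the replicate block and 0 to 101 with 1 library left out, and treated sorts in 78 to 127. The block changed no other call. Of 101 alternative counts 22 moved.

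Of 286 alternatives for usage measures 250 kept the direction. Of the 36 that reversed, 1 was in CD3-CD8-, 16 in CD3+CD8- and 19 in CD3+CD8+ libraries, and none of these differences passed its test. Values are treated minus untreated, and the cause was not tested. In CD3+CD8+ libraries without those rich in ribosomal counts, the differences were 0.066 (Ighv level, log2), 6.87 (Ighv effective number), 0.42 (Igkv level), -13.1 points (Igkv top share), 5.11 (Igkv effective number) and 3.50 (Igkv4-53 log2 fold change). In lane 2 alone they were 0.63 (Igkv level), -9.52 (Igkv top share) and 4.18 (Igkv effective number). In lane 3 alone they were 6.10 (Ighv top share) and -0.30 (Igkv top share), and the 3 highest Ighv segments gave 6.95. With 1 library left out they ran from -5.87 to 5.49 (Ighv top share), -21.0 to 6.87 (Ighv effective number), -8.15 to 6.89 (Igkv top share) and -7.67 to 5.11 (Igkv effective number). Log2 fold changes of Igkv4-53 ran from -3.42 to 2.32, the last without untreated 18.

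In CD3+CD8- libraries, library totals gave -0.051 (Ighv level) and -0.18 (Igkv level), and lane 2 alone -0.17 and -0.27, with 2.33 for the Igkv top share and -1.43 for the Igkv effective number. The Ighv effective number was 1.97 with the Shannon index and 3.32 rarefied. The joining-proximal share without the 3 highest segments was -6.56 (Ighv) and -3.79 (Igkv), and in lane 3 -14.9 (Ighv). With 1 library left out the ranges were -0.41 to 2.93 (Ighv top share), -8.07 to 0.69 (Ighv effective number), -3.16 to 9.46 (Ighv proximal share) and -0.27 to 1.20 (Igkv level). In CD3-CD8- libraries the Igkv level ran from -0.56 to 0.17, the last without treated 2. Of 237 alternatives for named segments 152 kept the direction and the side of the threshold, called or not, 81 lost a call, 2 gained one and 2 reversed. In CD3+CD8+ libraries, with as few as 26 Ighv counts, depth limits every share.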
